A study of Mus musculus with 48 samples.

Results

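Oxidative phosphorylation genes were followed in enteroendocrine cells of the mouse gut, across 3 gut regions and 3 surgery groups. Members were the protein-coding genes of the count table whose symbols carry the prefixes of complex I (Nduf), complex III (Uqcr, Cyc1), cytochrome c oxidase (Cox4 to Cox8), ATP synthase (Atp5) and succinate dehydrogenase (Sdha to Sdhd), together with the protein-coding genes of mitochondrial DNA (mt-). This gave 107 members of 53465 genes, 94 nuclear and 13 mitochondrially encoded. A further 13 symbols with these prefixes are pseudogenes or non-coding in the annotation and were left out. Of the nuclear members, 85 are subunits or isoforms of subunits, and 9 (Ndufaf1 to Ndufaf8 and Atp5s) share the prefix but are assembly or related factors.

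The cells were NeuroD1-positive, CD45-negative cells sorted by EYFP fluorescence from male lean mice that all carried NeuroD1-cre and the EYFP reporter, on a C57BL6 background, aged about 20 weeks at surgery, fed chow apart from a liquid diet around the operation. They came from the duodenum (the top 5 cm of small intestine), the ileum (its bottom 15 cm) and the colon with rectum. Groups were vertical sleeve gastrectomy (VSG, removal of about 70% of the stomach), sham operation with free feeding (sham ad libitum), and sham operation with food restricted to hold body weight at that of VSG mice (sham weight-matched). Tissue was taken 6 weeks after surgery, after an overnight fast and about 15 min after an oral glucose gavage of 3 g/kg. Each region was represented by 6 mice after VSG and by 5 of each sham group, which made 48 libraries from 17 mice, 15 of which gave all 3 regions. NeuroD1-cre labels any cell with a history of NeuroD1 expression, so the sort covers enteroendocrine cells of all hormone types and not a single one. In bulk libraries, fewer cells of a type and less RNA per cell cannot be told apart.

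The respiratory chain passes electrons from NADH (complex I) and succinate (complex II) through ubiquinone to complex III, cytochrome c and complex IV, which reduces oxygen, and ATP synthase (complex V) uses the proton gradient so formed to make ATP. Complexes I, III, IV and V are built from subunits of both genomes, whereas complex II is wholly nuclear. Some complex IV subunits exist as tissue isoforms, of which those of heart and skeletal muscle (Cox6a2, Cox7a1, Cox8b) are the best known. Transcripts of the mitochondrial genome arise by processing of long polycistronic RNAs, so their relative levels also depend on processing and stability.

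The libraries held 4648651 to 17182463 counts (median 6713018). All 12 enteroendocrine markers had counts in every library, and their summed level in counts scaled to library size (CPM, with TMM factors) ranged from 11803 to 100410. A single library stood apart, the duodenum library of mouse 27 (sham weight-matched). Its enteroendocrine marker sum of 11803 CPM was the lowest of all, against 37595 to 73876 in the other duodenum libraries, its enterocyte marker sum was 56566 CPM against 6869 to 18260, and mitochondrial ribosomal RNA took 27.8% of its counts against 8.23% to 17.8%. Its TMM factor of 0.617 was the lowest of the 48. Comparisons of the members with the duodenum are therefore given with and without it. The labels of mouse 12 disagree between ileum and colon, and its libraries were placed by their tissue field, with which their gut region markers go.

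Of the 107 members, 93 passed the filter on low counts, 86 nuclear and 7 mitochondrially encoded, and only these could be tested. The 7 were mt-Nd1, mt-Nd2, mt-Nd4, mt-Nd5, mt-Nd6 (complex I), mt-Cytb (complex III) and mt-Co1 (complex IV). No count was recorded in any library for mt-Co2, mt-Co3, mt-Atp6, mt-Atp8 or mt-Nd4l, and mt-Nd3 had 40 counts in all. A count of 0 over the whole series allows 3 counts. Most of these genes share their sequence with annotated nuclear pseudogenes. Of all stretches of 50 bases (the read length) in the annotated transcript, 100% of mt-Co2, 99.9% of mt-Co3, 99.5% of mt-Atp6, 98.8% of mt-Nd4l and 98.0% of mt-Nd3 also occur in another gene, mainly the chromosome 1 pseudogenes Gm28661, Gm28437, Gm10925, Gm10222 and Gm28438. For mt-Atp8, which overlaps mt-Atp6 by 43 bases, no stretch was shared. Sharing was sought among annotated transcripts only, so copies elsewhere in the genome would be missed. The pseudogenes themselves held 12 to 115 counts over all 48 libraries. The following 60 bases of mt-Co2 (GRCm38 chrM:7325-7384, plus strand, bases 313 to 372 of the transcript) are shown as an example of such shared sequence, since Gm28661 holds the same letters at the same bases and a read of either matches both.

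mt-Co2: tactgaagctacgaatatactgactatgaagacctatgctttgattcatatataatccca
Gm28661: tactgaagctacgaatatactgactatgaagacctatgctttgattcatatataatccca

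All 681 bases of Gm28661 are identical to mt-Co2. Sharing was 62.2% for mt-Nd4, 51.1% for mt-Co1, 8.19% for mt-Nd2, 7.61% for mt-Nd5 and 0% for mt-Nd1, mt-Nd6 and mt-Cytb. How reads with several matches were counted is not given in the sources used here, so levels of the 6 untested mt- genes are not interpreted, and those of mt-Nd4 and mt-Co1 are uncertain. Of the nuclear members, 17 shared at least 20% of their stretches with other genes, led by Atp5g2 (87.4%) and Atp5l (84.9%), and their levels are likewise uncertain. For colon against ileum, the median log2 fold change was 0.18 over the 16 of them that were tested and 0.22 over the other 70.

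Among the nuclear genes, ATP synthase and cytochrome c oxidase subunits had the highest levels per kilobase of transcript. The catalytic F1 subunits Atp5a1 and Atp5b stood at 403 ± 112 and 399 ± 103 CPM per kilobase (SD, n = 48), followed by Cox4i1 at 333 ± 129, Cox8a at 217 ± 72.7 and Atp5g3 at 217 ± 69.4. Neighbours in this order differed by less than their SDs except Cox4i1 and Cox8a, whose difference exceeded the SD of Cox8a. The median over the 86 tested nuclear genes was 54.7 CPM per kilobase. Mitochondrial transcripts were higher, with a median of 890.0 over the 7 tested. The highest was mt-Cytb at 1960 ± 603 CPM per kilobase, then mt-Co1 at 1783 ± 692 and mt-Nd1 at 1538 ± 507, which overlapped within their SD. The light-strand gene mt-Nd6 was the lowest of the 7, at 138 ± 48.8 CPM per kilobase.

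Isoforms of complex IV other than the ubiquitous ones were at or near 0, with the exception of Cox7a1. Cox8c had no count, and Cox4i2 (7 counts over all libraries), Cox6a2 (19), Cox7b2 (3), Cox8b (8), Ndufa4l2 (6) and the testis isoform Cox6b2 (164) were too low to be tested, while Cox4i1, Cox6a1, Cox6b1, Cox7b and Cox8a stood at 37.4 CPM or more in every library. Cox7a1, the heart and muscle form of subunit 7a, stood at 31.4 ± 16.2 CPM per kilobase beside 66.4 ± 22.8 for its ubiquitous counterpart Cox7a2 and 51.6 for Cox7a2l, a supercomplex factor. Of the 3 genes for the identical c-ring subunit of ATP synthase, Atp5g3 stood at 217 CPM per kilobase, Atp5g1 at 0.765 and Atp5g2 at 0.288, the last with 87.4% of its stretches shared. Over all libraries they held 54359, 1249 and 80 counts, on transcripts of 723, 4715 and 731 bases in the same order.

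**Figure D1:**
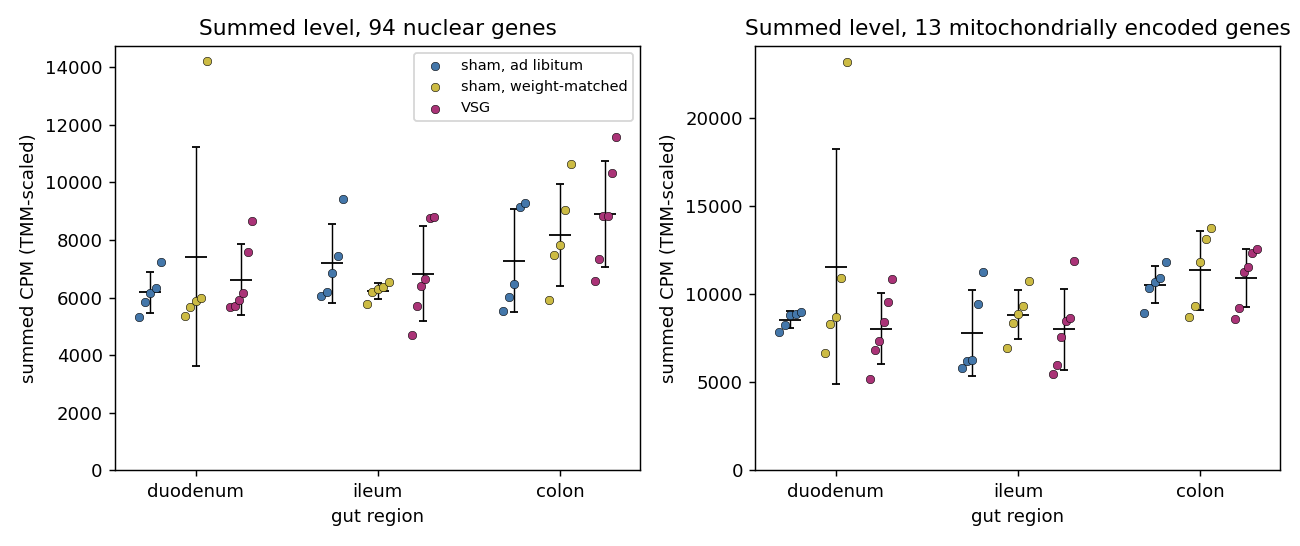
Summed CPM (y axis, TMM-scaled) of the 94 nuclear genes (left) and the 13 mitochondrially encoded genes (right) in each of the 48 libraries, by gut region (x axis) and surgery group (colours). Bars are the mean and SD of each group. On the right, nearly all counts come from the 7 tested genes, so the sum is not a full level of mitochondrial messenger RNA. The duodenum library of mouse 27 is the isolated point at 14215 and 23176 CPM, and colon libraries reach higher than the other duodenum and ileum libraries without separating from them.

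The first question was whether the level of these genes differs along the gut. The summed nuclear level was 6735 ± 2182 CPM in duodenum (SD, n = 16), 6760 ± 1263 in ileum and 8177 ± 1817 in colon. Without the library of mouse 27 the duodenum stood at 6236 ± 916 (n = 15). The lowest, median and highest libraries were 5326, 5941 and 14215 CPM in duodenum, 4687, 6393 and 9428 in ileum, and 5534, 8330 and 11588 in colon, so that the regions overlapped. Within mice, the colon sum exceeded that of the ileum in 12 of 16 and that of the duodenum in 12 of 15. As a share of all counts, without TMM scaling, nuclear members took 0.680% ± 0.093 in duodenum, 0.653% ± 0.108 in ileum and 0.801% ± 0.134 in colon. On this scale the library of mouse 27 stood at 0.876%, under the 0.879% of the highest other duodenum library.

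The mitochondrially encoded sum was 9294 ± 3978 CPM in duodenum (8368 ± 1509 without the library of mouse 27), 8196 ± 2009 in ileum and 10928 ± 1631 in colon. Colon exceeded ileum in 14 of 16 mice and duodenum in 14 of 15. As a share of all counts these genes took 0.929% ± 0.195, 0.787% ± 0.161 and 1.08% ± 0.159. Nearly all counts in the sum came from the 7 tested genes, since mt-Co2, mt-Co3, mt-Atp6, mt-Atp8 and mt-Nd4l had no count. Among the tested genes, levels of mt-Nd4 and mt-Co1 are uncertain for the reason given above. The sum, its share and the ratio below are therefore not read as full levels of mitochondrial messenger RNA. The count of mitochondrially encoded members per count of nuclear members was 1.39 ± 0.299 in duodenum, 1.24 ± 0.339 in ileum and 1.39 ± 0.335 in colon, and the differences between these means were smaller than their SDs. Mitochondrial ribosomal RNA took 13.7% of counts in duodenum, 13.8% ± 3.31 in ileum and 19.3% ± 3.24 in colon, with the colon above the ileum in 16 of 16 mice.

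Of the tested members, 28 nuclear and 3 mitochondrial genes were higher in colon than in ileum, among them 7 subunits of complex IV and mt-Co1, whereas Ndufa4 and Cox7a1 were lower. This comparison is given first, since neither region includes the library that stood apart. In edgeR's quasi-likelihood test, 28 of 86 nuclear members were higher in colon and 2 were lower at an adjusted p under 0.05 (Benjamini-Hochberg over 15126 genes). The background was 49.2% of all genes called, 23.8% higher and 25.4% lower, so that the share of members called (34.9%) was below that of all genes, and nearly all of them lay on the higher side. The median log2 fold change of the nuclear members was 0.22, against -0.01 for all genes tested, and 73 of 86 were above 0. Dropping mouse 27 from the duodenum group, which changes the filter and the shared spread, gave 40 higher and 2 lower, beside 50.1% of genes called (25.2% higher, 24.9% lower).

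Complex IV had the highest median, 0.44, with 7 of its 13 tested subunits higher and 2 lower. Cox5a and Cox5b flank the catalytic core, and Cox5a rose by 0.78 (SE 0.139, adjusted p 6.1e-06 in edgeR). Cox5a counts were 28.2, 43.7 and 62.3 CPM in the lowest, median and highest ileum library and 44.4, 79.3 and 119 CPM in colon. Cox6a1, the ubiquitous form of subunit 6a, ranged from 59.1 to 105 CPM in ileum with a median of 81.6, and from 82.0 to 230 CPM in colon with a median of 151. Its log2 fold change was 0.76 (SE 0.142, adjusted p 1.5e-05 in edgeR), and it was higher in colon in 15 of 16 mice. Cox4i1, the regulatory subunit 4, went from 214 ± 46.0 to 336 ± 112 CPM (log2 fold change 0.63), and Cox8a from 97.9 ± 22.3 to 155 ± 39.5 CPM (0.65), the latter in 16 of 16 mice. Cox7a2 rose by 0.51 and Cox7b by 0.44 on the log2 scale. Cox6b1 (0.32, adjusted p 0.068 in edgeR) and Cox7a2l (0.14, adjusted p 0.22) did not pass, and Cox6b1 did without the library of mouse 27 (0.33, adjusted p 0.021).

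Against these, Ndufa4 and Cox7a1 fell. Ndufa4 (GRCm38 chr6:11900292-11907497, minus strand), named for complex I but assigned to complex IV, was lower in colon than in ileum in 15 of 16 mice. Its ileum libraries lay between 19.2 and 47.4 CPM with a median of 28.9, and its colon libraries between 9.28 and 36.5 with a median of 18.1. The log2 fold change was -0.60 (SE 0.147, adjusted p 0.00068 in edgeR), with overlap between the regions. Cox7a1 (chr7:30184144-30186078, plus strand) lay between 6.65 and 24.7 CPM in ileum with a median of 11.7, and between 2.39 and 16.6 in colon with a median of 9.15, a log2 fold change of -0.53 (SE 0.226). Its adjusted p of 0.047 in edgeR lay close to the threshold, and among other settings DESeq2, nuclear-only scaling and omission of any of 9 mice (12, 13, 18, 19, 21, 28, 29, 30 or 31) took it past 0.05. It was lower in colon in 12 of 16 mice.

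Complex I had 15 of 36 tested subunits higher in colon than in ileum and 0 lower, with a median of 0.24. The accessory subunit Ndufb4 had the largest change, 0.98 (SE 0.268), from a level of 2.01 ± 0.795 CPM in ileum to 4.13 ± 2.18 in colon, and 37.0% of its stretches occur elsewhere. Ndufa6, an accessory subunit with no shared stretch, rose from 103 ± 21.6 to 163 ± 38.8 CPM (log2 fold change 0.65, SE 0.107, adjusted p 1.3e-06 in edgeR) and was higher in colon in 15 of 16 mice. The smallest changes among the nuclear members that rose were those of Ndufv3, Ndufa9 and Ndufs1, the large iron-sulphur subunit, at 0.30, 0.28 and 0.24. Ndufs1 lay close to the threshold (adjusted p 0.044 in edgeR) and lost its call without any of 7 mice, and Ndufa9 lost it without mouse 32.

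For complex III, 3 of 9 members rose, with a median of 0.27. Uqcr10, a small accessory subunit, rose from 40.9 ± 10.1 to 69.1 ± 21.2 CPM, by 0.74 on the log2 scale (SE 0.128), in 16 of 16 mice. Uqcrb rose by 0.69 (SE 0.165), with 43.4% of its stretches shared. In complex II, which anchors the citrate cycle to the chain, Sdhb rose by 0.40 and Sdhd by 0.38, whereas Sdha (0.16, adjusted p 0.23 in edgeR) and Sdhc (0.17, adjusted p 0.31) did not pass. Sdha was called without the library of mouse 27 (0.18, adjusted p 0.045 in edgeR). For ATP synthase, 1 of 15 tested subunits was higher (4 without that library), 0 were lower and the median was 0.17. The c-ring genes Atp5g1 (0.48, adjusted p 0.11 in edgeR) and Atp5g3 (-0.23, adjusted p 0.15) did not pass. None of the 9 assembly and related factors was called in this comparison by edgeR, 0 had an unadjusted p under 0.05, and their median was 0.10.

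**Figure D2:**
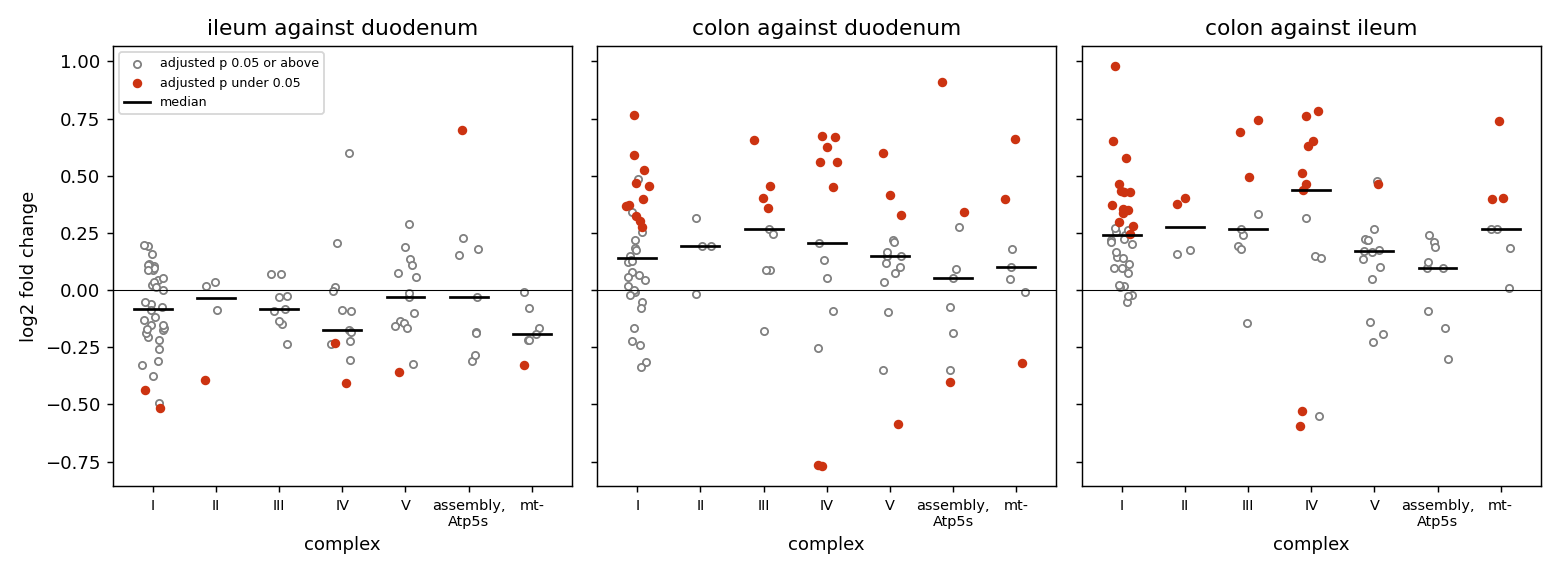
Log2 fold change (y axis) of each of the 93 tested members in the 3 region comparisons, by complex (x axis; the last columns hold assembly factors with Atp5s and the mt- genes). Red points have an adjusted p under 0.05 and bars are medians; in colon against ileum the complex IV median is 0.44, with Ndufa4 and Cox7a1 at -0.60 and -0.53.

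All 7 tested mitochondrial transcripts had fold changes above 0 in colon against ileum, with a median of 0.27, and 3 were called. For mt-Co1, the catalytic subunit of complex IV, ileum libraries lay between 1416 and 3392 CPM with a median of 2246, and colon libraries between 2639 and 4929 with a median of 3696. The log2 fold change was 0.74 (SE 0.143, adjusted p 2.3e-05 in edgeR), higher in 16 of 16 mice. mt-Cytb rose by 0.40 (SE 0.130) and mt-Nd6 by 0.40 (SE 0.156), the latter lost without mouse 11 or mouse 32. mt-Nd1 (0.27, adjusted p 0.10 in edgeR), mt-Nd4 (0.27, adjusted p 0.10), mt-Nd5 (0.18, adjusted p 0.25) and mt-Nd2 (0.01, adjusted p 0.97) did not pass. Without the duodenum library of mouse 27, 5 were called higher, mt-Nd1 and mt-Nd4 joining the others.

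Ratios of counts within a library need no scaling, and are given here for the mitochondrial gene with the highest and the 1 with the lowest fold change in colon against ileum. The count of mt-Co1 per count of mt-Nd2 was 3.84 ± 0.543 in duodenum (SD, n = 16), 4.55 ± 0.706 in ileum and 7.57 ± 1.01 in colon. The highest of the 32 small-intestinal libraries stood at 5.92 and the lowest of the 16 colon libraries at 5.95, so colon did not overlap with the other regions. The ratio was higher in colon in 16 of 16 mice against ileum and in 15 of 15 against duodenum, also in mouse 27, where it was 4.14 in duodenum and 8.24 in colon. Because 51.1% of the stretches of mt-Co1 and 8.19% of those of mt-Nd2 occur elsewhere, the ratio is not a ratio of molecules. The ratio of mt-Co1 to mt-Cytb was also higher in colon in 16 of 16 and 15 of 15 mice.

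Nuclear members of complex IV gave the same kind of contrast. Ndufa4 per count of Cox6a1 was 0.388 ± 0.095 in duodenum, 0.355 ± 0.094 in ileum and 0.138 ± 0.036 in colon. Small-intestinal libraries ranged from 0.222 to 0.602 and colon libraries from 0.0915 to 0.2215, again with no overlap, though the closest libraries of each side, at 0.2221 and 0.2215, nearly met. Cox7a1 per count of Cox7a2 was 0.340, 0.379 ± 0.186 and 0.171 ± 0.047, lower in colon in 16 of 16 mice against ileum and 15 of 15 against duodenum, with overlap between libraries. These pairs were chosen with the fold changes known, so the ratios are given as a description with no test.

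**Figure D3:**
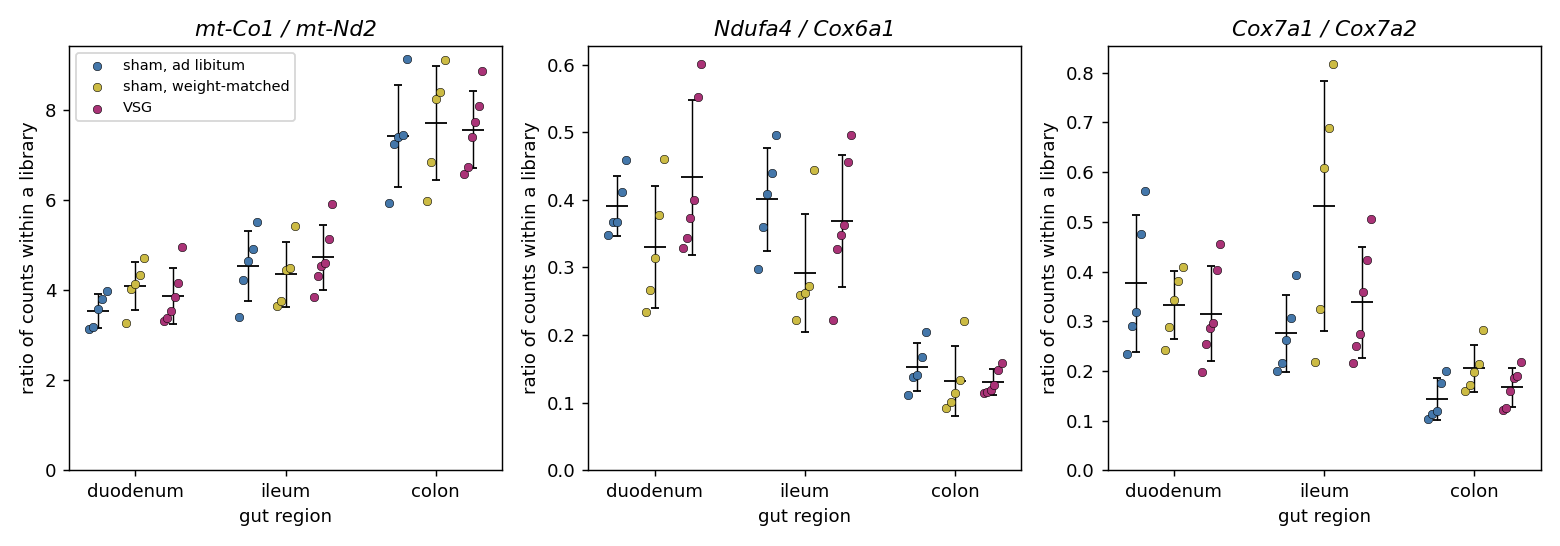
Ratio of counts within each library (y axes, no unit) for mt-Co1 to mt-Nd2, Ndufa4 to Cox6a1 and Cox7a1 to Cox7a2, by gut region (x axis) and surgery group (colours), with the mean and SD of each group. Colon means are 7.57, 0.138 and 0.171, and surgery groups overlap within each region.

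Against the duodenum, 26 of 86 nuclear members were higher in colon and 4 were lower in edgeR, beside 55.0% of all genes called (26.8% higher, 28.3% lower). The median log2 fold change was 0.15 (all genes -0.01). Without the library of mouse 27 the counts were 46 higher and 4 lower, beside 56.4% of genes called (29.1% higher, 27.3% lower), and the median was 0.28. The highest were Ndufaf2 (0.91), Ndufa6 (0.77, from 94.8 ± 19.8 CPM in duodenum, higher in 15 of 15 mice), Cox6a1 (0.67), Cox5b (0.67) and Uqcr10 (0.66). Ndufaf2, an assembly factor, lies opposite B230220B15Rik over 1955 exonic bases, so reads of the pair cannot be told apart if counting ignored strand. By complex, 11 of 36 tested subunits of complex I, 4 of 9 of complex III, 6 of 13 of complex IV and 3 of 15 of complex V were higher. Of complex II 0 of 4 passed in edgeR, 1 had an unadjusted p under 0.05, and 3 (Sdha, Sdhb and Sdhc, at 0.36, 0.51 and 0.36) did so without the library of mouse 27.

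The 4 lower genes were Ndufa4, Cox7a1, Atp5g3 and the assembly factor Ndufaf4, and all 4 were also lower without the library of mouse 27. Ndufa4 went from 32.6 ± 9.81 CPM in duodenum to 19.3 ± 6.63 in colon, a log2 fold change of -0.77 (SE 0.147, adjusted p 1.4e-05 in edgeR) or -0.65 without that library, and was lower in 15 of 15 mice. Cox7a1 went from a median of 12.2 CPM, with a highest value of 39.0, to the colon values given above (-0.77, SE 0.223), or -0.57 without that library. Atp5g3, the c-ring gene with the most counts, showed a gradient in its means, 191 ± 57.2 CPM in duodenum, 150 ± 31.8 in ileum and 129 ± 37.8 in colon. Its log2 fold change from duodenum to colon was -0.58 (SE 0.129, adjusted p 0.00014 in edgeR), lower in 15 of 15 mice, and -0.46 without that library. Ndufaf4 fell by 0.40 (SE 0.134). The smallest of the higher values was that of Ndufa13 (0.28), with 28.5% of its stretches shared.

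Among the mitochondrial genes, mt-Co1 (0.66, SE 0.143) and mt-Nd6 (0.40, SE 0.155) were higher in colon than in duodenum and mt-Nd2 was lower (-0.32, SE 0.130, adjusted p 0.034 in edgeR), with a median of 0.10. The fall of mt-Nd2 rested on the library of mouse 27, where it reached 1592 CPM, and without it was -0.15 (adjusted p 0.22 in edgeR). It also lost its call without mouse 13, 18 or 30. Without the library of mouse 27, mt-Co1 (0.84), mt-Nd6 (0.59), mt-Cytb (0.33) and mt-Nd1 (0.27) were higher and 0 were lower.

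**Figure D4:**
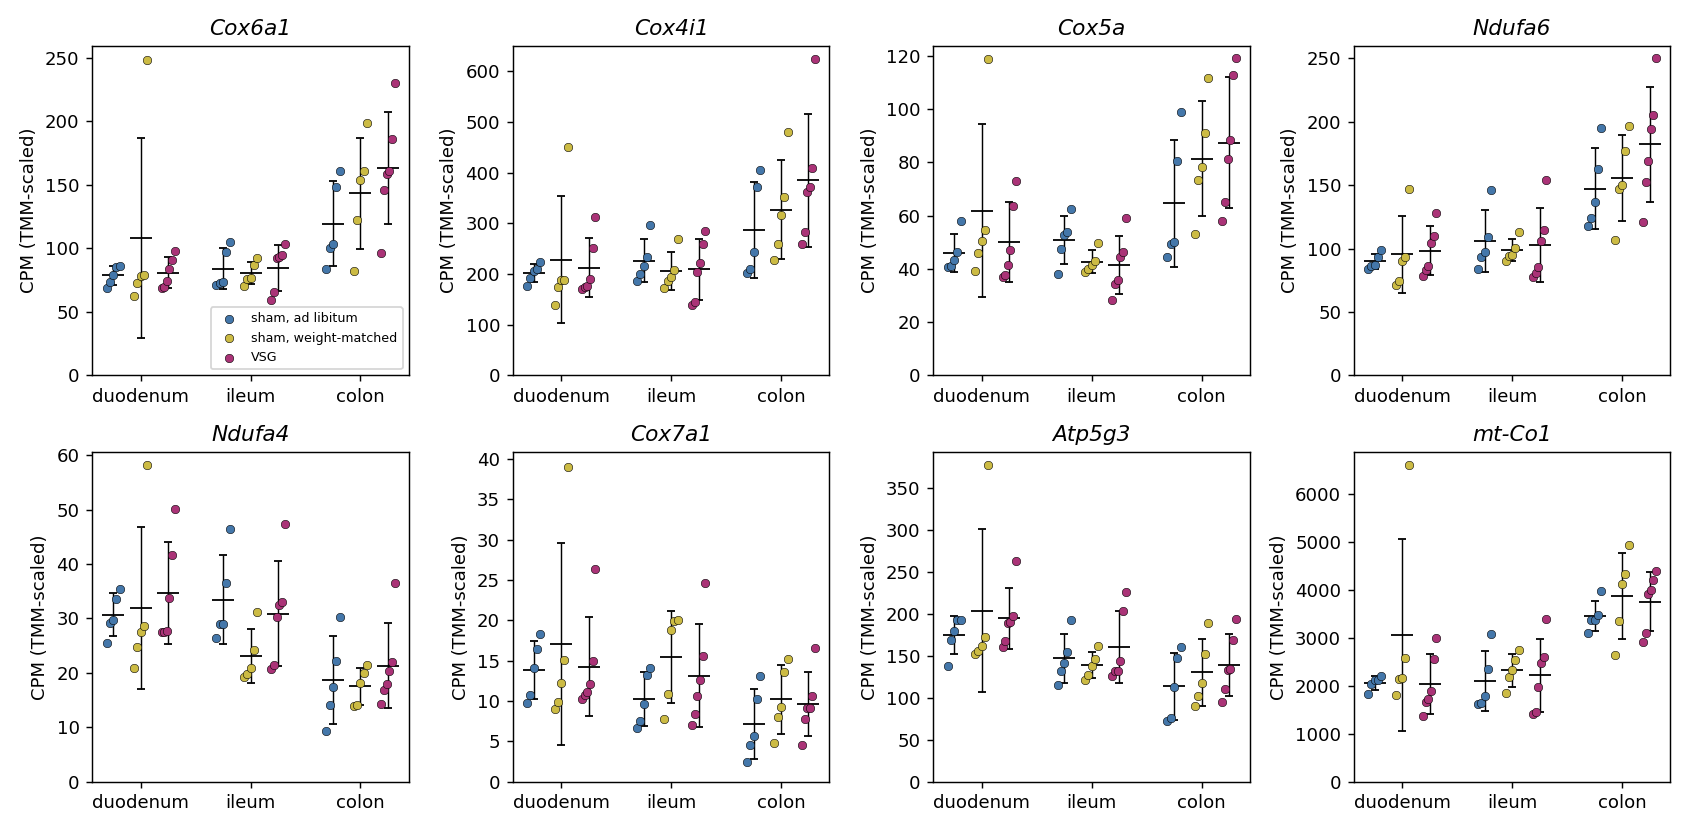
CPM (y axes, TMM-scaled, each starting at 0) of 8 members in each library by gut region (x axis) and surgery group (colours), with the mean and SD of each group. Cox6a1, Cox4i1, Cox5a, Ndufa6 and mt-Co1 have higher colon means, and Ndufa4, Cox7a1 and Atp5g3 lower ones; the duodenum library of mouse 27 is the top duodenum point in all 8.

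Few of these genes were called between ileum and duodenum in the main fit. Other settings changed this, and the library index could not be fully told apart from the region, as given below. In edgeR 1 of 86 nuclear members was higher in ileum and 6 were lower, beside 33.8% of all genes called (17.2% higher, 16.6% lower), with a median of -0.09 (all genes 0.00). The higher gene was Ndufaf2 (0.70), uncertain for the reason given above. The lower ones were Ndufa1 (-0.51, SE 0.165), Ndufb2 (-0.43), Cox6c (-0.41), Sdhd (-0.39), Atp5g3 (-0.36) and Cox7a2l (-0.23). The direction of the counts turned without the library of mouse 27, to 7 higher and 3 lower, beside 38.3% of genes called (20.7% higher, 17.6% lower), with a median of 0.01. Ndufa1, Cox6c and Cox7a2l were the 3 still lower, at -0.39, -0.32 and -0.24. Ndufa1, an X-linked accessory subunit of complex I, was lower in ileum in 13 of 15 mice, with 18.6, 24.9 and 63.5 CPM (lowest, median, highest) in duodenum and 13.3, 17.3 and 41.5 in ileum. With the mouse as a fixed block, which pairs the regions of each animal, 1 was higher and 14 were lower, beside 17.7% and 17.5% of all genes, and without the library of mouse 27 in that blocked fit 5 were higher and 11 lower, beside 20.1% and 18.5%. Leaving out mouse 13, 19 or 32 left 4 calls, and leaving out mouse 27 altogether gave 12, of which 9 were higher.

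Of the 7 mitochondrial genes, mt-Nd2 alone was called, lower in ileum (-0.33, SE 0.130, adjusted p 0.047 in edgeR). Without the library of mouse 27 it was -0.17 (adjusted p 0.19 in edgeR), and the call was also lost with the mouse as a block and without each of mice 11, 13, 18, 22, 24, 28, 30 and 32. The other 6 lay between -0.22 (mt-Nd4) and -0.01 (mt-Nd6).

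The second index in the library titles was not balanced over regions, and what it marks beyond the library's barcode is not stated. Of these indices, D502 was used only for duodenum (12 libraries), D501 for 4 duodenum, 7 ileum and 1 colon library, D503 for 8 ileum and 4 colon, and D504 for 1 ileum and 11 colon. With the index as a covariate, 0 nuclear members were higher and 16 were lower in ileum than in duodenum, beside 3.81% and 7.52% of all genes. In the same fit 0 were higher and 7 lower in colon than in duodenum, beside 11.9% and 16.1%, so both comparisons changed and the second reversed, with log2 fold changes of -0.12 for both Cox6a1 and mt-Co1 in the latter. With the library of mouse 27, itself a D501 library, left out of that fit, the counts were 0 and 0 for ileum against duodenum, beside 1.53% and 3.01% of all genes, and 3 higher and 0 lower for colon against duodenum, beside 7.77% and 9.89%. Region and index cannot be fully told apart for the duodenum, nor fully for colon against ileum. Ileum and colon met mainly in D503. The 1 colon library of D501 and the 1 ileum library of D504 both came from mouse 12, whose labels disagree between these regions. Colon against ileum held in direction, with 19 higher and 1 lower under the covariate, beside 18.5% and 19.3% of all genes. Within the 12 libraries of index D503 alone, 23 nuclear members were higher and 0 lower, with a median of 0.25, beside 11.2% and 12.3% of all genes. Within D501, 4 duodenum and 7 ileum libraries gave 0 nuclear calls in either direction. There 3 mitochondrial genes were lower, and 1 without the library of mouse 27, beside 3.13% and 3.83% of all genes called. The fits within an index also held the surgery group, so in D501 the VSG libraries, all from ileum, added nothing to the region estimate. Without the library of mouse 27, that estimate rested on sham ad libitum libraries alone.

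Marker sums of some other cells in the sorts moved with these genes. In colon, the nuclear sum was higher in libraries with a lower enteroendocrine marker sum, with r = -0.81 and rho = -0.85 over 16 libraries on log2 values, and r = -0.87 after leaving out the 2 libraries farthest from the median marker sum. It was higher with a higher sum of 10 colonocyte markers (r = 0.92, rho = 0.88) and of 8 goblet markers (r = 0.71, rho = 0.61). Its correlation with the enterocyte sum was weak and negative (r = -0.23, rho = -0.28). It also went with the share of mitochondrial ribosomal RNA (r = 0.80, rho = 0.78) and with lower total counts (r = -0.66, rho = -0.65). All these sums share each library's scaling factor. Of the 86 nuclear members, 85 had a negative correlation with the enteroendocrine sum in colon, with a median r of -0.63, and 6 of 7 mitochondrial genes did, with a median of -0.33. The same held for the nuclear sum in ileum (r = -0.83, rho = -0.70), and in duodenum without the library of mouse 27 it was weaker (r = -0.41, rho = -0.38, n = 15). In ileum the nuclear sum went with colonocyte markers (r = 0.71, rho = 0.55), and less with enterocyte (0.46, 0.21) and goblet markers (0.37, 0.20). The mitochondrially encoded sum in colon had r = -0.42 with enteroendocrine, 0.34 with colonocyte and 0.63 with goblet markers. The colonocyte markers all had counts in every colon library, and their sum ran from 889 to 3003 CPM in colon, against 137 to 599 in ileum and 85.7 to 284 in the duodenum libraries other than that of mouse 27. Of these 10 markers, 7 had counts in every ileum library. Without the library of mouse 27, 8 were called higher and 2 lower in colon than in ileum, beside 25.2% and 24.9% of all genes. Their sum in ileum is therefore not read as a level of colonocytes there. The goblet sum ran from 3177 to 14102, 1639 to 9560 and 2777 to 5013 CPM in the same order. The enteroendocrine sum ran from 29638 to 100410, 34494 to 84099 and 37595 to 73876 CPM. Single enteroendocrine markers mostly went lower in colon. Without the library of mouse 27, 7 of 12 were called lower and 2 higher than in ileum (median -0.79), beside 24.9% and 25.2% of all genes. Against duodenum 8 were lower and 1 higher (median -1.55), beside 27.3% and 29.1%. Enterocyte markers summed to 675 to 1208 CPM in colon and 5678 to 19997 in ileum, and Paneth markers to 4.64 to 141 and 1187 to 12760. The part of other cells and of library quality in the higher colon values was not tested.

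**Figure D5:**
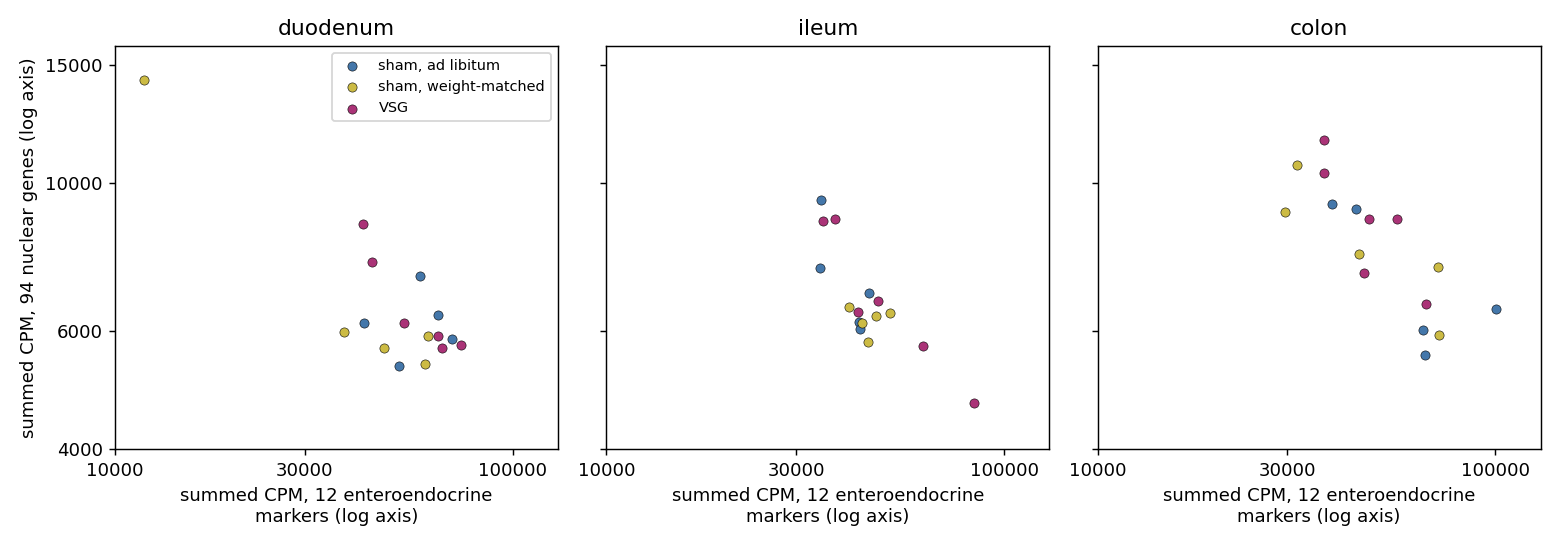
Summed CPM of the 94 nuclear genes (y axis, log scale) against the summed CPM of 12 enteroendocrine markers (x axis, log scale) in each library, with 1 panel per region and colours for surgery group. In ileum and colon the points fall from upper left to lower right (r = -0.83 and -0.81), and the duodenum library of mouse 27 lies at the upper left of its panel.

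Genes around the respiratory chain were called in both directions, as were all genes, for which the shares higher and lower were 23.8% and 25.4% in colon against ileum, 26.8% and 28.3% in colon against duodenum, and 17.2% and 16.6% in ileum against duodenum. Without the library of mouse 27, every gene named below from a comparison with the duodenum kept its direction and, except Sdhaf3 (-0.51, adjusted p 0.062 in edgeR), its call. Counts moved too. For ileum against duodenum without that library, 4 biogenesis regulators were higher and 3 lower of 14, and 3 assembly genes were higher and 1 lower. For colon against duodenum they became 13 higher and 6 lower among citrate cycle genes, 6 and 1 among carriers and 10 and 6 among glycolytic genes. In what follows, a pair of log2 fold changes gives colon against ileum and then colon against duodenum, unless said otherwise. Among 13 tested regulators of mitochondrial biogenesis, 4 were higher and 5 lower in colon than in ileum, with a median of -0.22, and 3 were higher and 3 lower in colon than in duodenum. The coactivators Ppargc1b (1.08 and 0.93) and Ppargc1a (0.73 and 0.84), which drive mitochondrial gene programmes, were higher in colon in both comparisons. Gabpa (-0.28), whose product binds ETS motifs in many respiratory gene promoters, and Gabpb1 (-0.28), which encodes its partner subunit, were lower in colon than in ileum, and Esrrg (-1.03) and Ppara (-0.83) were lower in colon than in duodenum. Ppara and Esrrg were also the 2 lower of 13 in ileum against duodenum, at -0.52 and -0.67, with 0 higher.

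Of 42 tested assembly genes, 9 were higher and 3 lower in colon against each other region, and 0 were higher and 4 lower in ileum against duodenum. Surf1, needed for complex IV assembly, was higher in colon than in duodenum by 1.14 (SE 0.087, adjusted p 4.6e-16 in edgeR) and was also called against ileum, and the complex III factor Uqcc3 was higher by 0.49 and 0.69. Taco1 and Ttc19 were lower in colon than in ileum (-0.40 and -0.31), Cox19 and Sdhaf2 lower than in duodenum (-0.65 and -0.33), and Cox17 and Sdhaf3 lower in ileum than in duodenum (-0.44 and -0.58). Of 19 genes of mitochondrial transcription and replication, 2 were higher and 4 lower in colon against ileum, 3 and 4 in colon against duodenum, and 1 and 1 in ileum against duodenum. Lrpprc, which stabilizes mitochondrial messenger RNAs, was lower in colon (-0.45 against ileum, -0.35 against duodenum), Mtpap, the mitochondrial poly(A) polymerase, was higher (0.28 in both), and the DNA polymerase gene Polg was higher in ileum and colon than in duodenum (0.39 and 0.40).

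Electron carriers were divided, with 5 higher and 3 lower of 20 in colon against ileum, 6 and 2 in colon against duodenum and 1 and 5 in ileum against duodenum. Sqor, which passes electrons from sulphide to ubiquinone, was lower in ileum than in duodenum (-0.67) and higher in colon than in ileum (1.31, SE 0.112) and duodenum (0.65). Gpd2, the mitochondrial end of the glycerol phosphate shuttle, was lower in colon (-1.37 against ileum, -1.89 against duodenum), and cytochrome c, Cycs, fell by 0.72 from duodenum to ileum and by 1.02 to colon. Of 24 citrate cycle and pyruvate dehydrogenase genes, 9 were higher and 6 lower in colon against ileum, 9 and 7 in colon against duodenum, and 2 and 7 in ileum against duodenum. Suclg2 was higher in colon (0.94 and 1.34) and the kinase gene Pdk3 lower (-0.99 and -1.65), Pdk4 was lower in ileum than in duodenum (-2.35, SE 0.223), Dlat was higher in colon than in ileum (1.04) and Mdh2 lower (-0.60).

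Of 10 carriers and uncoupling genes, 3 were higher and 0 lower in colon against ileum, 2 and 1 in colon against duodenum, and 0 and 3 in ileum against duodenum. The porin Vdac3 was higher in colon (1.08 and 1.25), and Slc25a4, the ADP/ATP carrier of muscle and heart, was lower in ileum and colon than in duodenum (-0.52 and -0.65). Of 19 glycolytic genes, 8 were higher and 3 lower in colon against ileum, 7 and 6 in colon against duodenum, and 3 and 4 in ileum against duodenum. Isoforms of hexokinase moved in opposite directions, with Hk1 higher in colon (2.38 and 2.72) and Hk2 lower (-1.08 and -1.05), and Aldoa was higher in colon (1.33 and 1.49). Of 8 antioxidant genes, 2 (Sod2, 0.31, and Txn2, 0.33) were higher in colon than in ileum, 1 (Txn2, 0.62) was higher than in duodenum, and 0 were called by edgeR in ileum against duodenum, where 1 had an unadjusted p under 0.05. Of the mitochondrial ribosomal RNAs, mt-Rnr2 was higher in colon (0.45 against ileum, adjusted p 0.049, and 0.56 against duodenum, adjusted p 0.014, edgeR) and mt-Rnr1 was not called.

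Promoters of genes that moved in opposite directions are shown for 2 that rose in colon and 2 that fell. Each line gives bases 250 to 51 before the RefSeq transcript start (GRCm38.p6), 5′ to 3′ on the gene's strand, with capitals for the NRF1 core GCATGCGC or its complement GCGCATGC, which overlap each other in Cox6a1. The ETS core CCGGAAG, with its complement CTTCCGG, was searched too and does not occur in these stretches. NRF1 and ETS factors are known regulators of respiratory genes. The windows are chr5:115349009-115349208, minus strand, for Cox6a1, chr15:82354342-82354541, minus, for Ndufa6, chr6:11907501-11907700, minus, for Ndufa4, and chr7:30183921-30184120, plus, for Cox7a1.

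Cox6a1: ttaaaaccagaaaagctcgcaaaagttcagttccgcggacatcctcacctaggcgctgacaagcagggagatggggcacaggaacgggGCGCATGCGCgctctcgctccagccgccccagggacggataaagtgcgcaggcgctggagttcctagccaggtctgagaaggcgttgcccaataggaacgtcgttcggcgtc
Ndufa6: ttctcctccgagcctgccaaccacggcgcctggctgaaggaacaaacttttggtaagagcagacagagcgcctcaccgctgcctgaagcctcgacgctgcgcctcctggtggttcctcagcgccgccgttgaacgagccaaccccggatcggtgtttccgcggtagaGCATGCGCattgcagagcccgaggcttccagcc
Ndufa4: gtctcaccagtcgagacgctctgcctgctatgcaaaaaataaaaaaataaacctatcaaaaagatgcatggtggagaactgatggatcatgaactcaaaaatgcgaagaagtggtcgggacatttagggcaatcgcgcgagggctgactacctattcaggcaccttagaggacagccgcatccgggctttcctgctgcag
Cox7a1: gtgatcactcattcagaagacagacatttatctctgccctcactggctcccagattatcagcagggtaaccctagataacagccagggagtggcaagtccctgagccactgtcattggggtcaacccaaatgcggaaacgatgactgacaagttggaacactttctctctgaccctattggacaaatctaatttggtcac

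Over the full 250 bases before the start, Cox6a1 also held an ETS core beginning 16 bases before it, Ndufa6 held the NRF1 core alone, and Ndufa4 and Cox7a1 held neither. RefSeq promoters were matched for 74 of the 94 nuclear members. The NRF1 core was present in 9 of the 74 (12.2%) and the ETS core in 13 (17.6%), beside 2.32% and 7.05% of 27025 promoters of all genes, 1 per gene. Among the 24 matched members higher in colon than in ileum, 3 held the NRF1 core (12.5%) and 2 the ETS core (8.33%), and among the other 46 tested members 5 (10.9%) and 11 (23.9%). Most of the members higher in colon thus lacked the NRF1 core that both risen examples hold.

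The second question was whether surgery or food restriction changes these genes. No member passed the threshold in any comparison between surgery groups, whether averaged over the 3 regions or within a region, nor in the interaction of surgery and region, in edgeR, DESeq2 or limma voom. The background was near this, with 0% of all genes called for VSG against sham ad libitum, 0.245% for VSG against sham weight-matched and 0.0529% for the 2 sham groups. Within regions it was 0.225% in duodenum, 0.0463% in ileum and 0.0595% in colon for VSG against sham weight-matched, 0.0132% in colon and 0% in duodenum and ileum for the sham groups, and 0% in each region for VSG against sham ad libitum. For the interaction it was also 0%. At an unadjusted p under 0.05, 1, 2 and 2 of the 93 tested members appeared in the 3 averaged comparisons, in the same order, and 1 in the interaction. Within duodenum, ileum and colon these numbers were 0, 3 and 5 for VSG against sham ad libitum, 5, 0 and 0 for VSG against sham weight-matched, and 3, 3 and 0 for the sham groups. Without the library of mouse 27 they were 0, 4 and 13, 0, 1 and 0, and 0, 3 and 1. The share of all genes at this unadjusted cut-off is not given here, so these numbers are not read as a result about the members.

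For VSG against sham ad libitum the nuclear median log2 fold change was 0.09, with 75 of 86 members above 0, and the mitochondrial median was -0.03 (all genes 0.01). Within colon the nuclear median was 0.27, with 79 of 86 above 0. The members were read in the same libraries and went together, with 85 of 86 negatively correlated with the enteroendocrine sum in colon. Such a number above 0 is thus not one of independent genes, and the share of all genes above 0 is not given here. The nuclear sums behind it were 5534, 6466 and 9279 CPM (lowest, median, highest) in sham ad libitum colon, 5915, 7838 and 10631 in sham weight-matched and 6580, 8824 and 11588 in VSG, and the groups overlapped. In the same comparison 10 of 10 colonocyte markers (median 0.57) and 8 of 8 goblet markers (0.44) were above 0, and all 12 enteroendocrine markers were below it (-0.36). Of these 0 were called by edgeR, with 1, 0 and 1 at an unadjusted p under 0.05 in the same order, and their part in the difference was not tested. The lowest p was that of Ndufa1 (0.42, SE 0.163, adjusted p 0.72 in edgeR), which in colon stood at 10.1, 24.7 and 32.8 CPM (lowest, median, highest) in sham ad libitum and 21.4, 34.6 and 39.3 in VSG, with overlap. Ndufs4 (0.21) and Atp5h (0.26) followed on the higher side, and Atp5l (-0.51), Atp5s (-0.26) and Ndufaf1 (-0.26) on the lower, with adjusted p of 0.90 to 0.99 in edgeR.

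For VSG against sham weight-matched the nuclear median was 0.05 (0.15 without the library of mouse 27, with 8 members at an unadjusted p under 0.05) and the mitochondrial median -0.23, with 0 of 7 mitochondrial genes above 0. mt-Cytb (-0.27, SE 0.127, adjusted p 0.46 in edgeR), mt-Nd2 (-0.26) and mt-Nd1 (-0.26) had the lowest p. In duodenum the mitochondrial median was -0.55, and there the library of mouse 27 belongs to the sham weight-matched group. mt-Cytb stood at 1505, 2204 and 5568 CPM (lowest, median, highest) in sham weight-matched duodenum and 1240, 1953 and 2418 in VSG duodenum, the 5568 being that library. Without it the duodenum median was -0.10 and the averaged one -0.11. On the higher side, Ndufaf5 (0.30), Ndufa4 (0.27) and Ndufaf8 (0.21) had the lowest p, with adjusted p of 0.51 to 0.65 in edgeR. Ndufa4 without that library was 0.38 (adjusted p 0.28 in edgeR).

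Between the sham groups, weight-matched against ad libitum, the nuclear median was 0.05 and the mitochondrial 0.24, and without the library of mouse 27 they were -0.06 and 0.08. Cox7a1 (0.48, SE 0.229, adjusted p 0.77 in edgeR), mt-Nd1 (0.29) and mt-Co1 (0.29) had the lowest p on the higher side, at 0.29, 0.13 and 0.13 without that library. Ndufaf4 (-0.18), Ndufa4 (-0.19) and Ndufaf8 (-0.18) were the lowest on the other. In ileum 7 of 86 nuclear members were above 0, again not independent genes, with a median of -0.20, and sums were 6041 to 9428 CPM in sham ad libitum against 5782 to 6530 in sham weight-matched, with overlap. There 12 of 12 enteroendocrine markers were above 0 (median 0.38), and all 10 colonocyte (-0.59) and 8 Paneth markers (-1.30) were below it. Of these 0 were called by edgeR, with 2, 1 and 6 at an unadjusted p under 0.05 in the same order, and their part was not tested. These tests had limited reach. In simulated counts for VSG against sham ad libitum averaged over regions, 200 genes picked from all tested genes were changed. At a change of 0.5 on the log2 scale 41.5% were recovered, and at 1 74.5%, so changes of 0.5 or less were mostly not recovered there. Libraries were drawn independently, with no effect of the mouse, and comparisons within a region were not simulated. The reach for the members alone was not simulated either.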

How the data were processed

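Counts per gene were deposited by the authors as whole, unnormalized numbers for each library. Libraries were made from 2 ng of RNA with a stranded total RNA kit (SMARTer pico), sequenced as single reads of 50 bases, and aligned and counted with STAR 2.5.1 on GRCm38 with Ensembl release 91. CASAVA is also named in the submitters' processing notes. Whether counting used strand is not given in the sources used here. Biotypes, coordinates and transcripts came from GENCODE M21, matched by identifier for 53360 of 53465 genes, and the rest entered the tests but not the members.

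Tests used edgeR 4.0.16 in R 4.3.3 on all genes past the default filter (15126), with TMM scaling, robust quasi-likelihood dispersions and 9 group means of region and surgery. Region comparisons were averaged over surgery groups and surgery comparisons over regions, p-values were two-sided, adjustment was by Benjamini-Hochberg, and the threshold was 0.05. This fit had no term for the mouse. Surgery comparisons averaged over regions thus counted the regions of 1 mouse as separate libraries, and their SE and p-values do not allow for that. SE is the absolute log2 fold change over the root of F. Alternatives used DESeq2 1.42.0, limma 3.58.1, other filters and scalings, the mouse as a block, the library index, and omission of libraries or mice. Correlations used log2 values and carry no p, and counting intervals are not given because spread over libraries is.

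The members and lists were chosen with earlier results of these data known. Named genes were all mt- genes, the 5 highest and 5 lowest called nuclear members per region comparison, tissue isoforms with their partners, c-ring genes, Sdha to Sdhd, the 3 lowest p per direction in surgery comparisons, and the 2 lowest p per direction in each pathway list. A result that this rule names is not reported here. Members named outside this rule were chosen after their values were seen.

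Replicate numbers are mouse numbers, so regions of 1 mouse are paired. In 46 pairs of libraries that came from 1 mouse, deviations from group means in the 2000 most variable genes had a median r of 0.123 (-0.056 to 0.437), with 27 pairs over 0.1. Libraries within groups were compared for duplicates, and none was found among 105 pairs, where chi-square per gene was at least 8.82. The scripts were tested on simulated data, where 39.5% of 200 genes changed by 0.5 on the log2 scale and 76.5% of those changed by 1 were recovered for colon against ileum among 15126 genes. Levels per kilobase used the length of the main transcript.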

Additional observations from a re-analysis of the deposited data

Results flagged for a closer look

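In 13 of 90 group and measure combinations searched, 1 library lay far from the rest of its group, where chance gives about 1 in 20. Of these, 9 were the duodenum library of mouse 27 (sham weight-matched), whose low enteroendocrine and high enterocyte marker sums are given above. Its nuclear sum was 14215.2 CPM, against 5358.6 to 5976.9 in the other 4 libraries of its group, and its mitochondrially encoded sum was 23175.5 CPM, against 6655.4 to 10913.3. It was highest for genes that were higher and for genes that were lower in colon. It held 58.1 CPM of Ndufa4 (others 20.8 to 28.65), 39.02 of Cox7a1 (8.997 to 15.13) and 377.9 of Atp5g3 (152.6 to 172.0). It also held 118.8 CPM of Cox5a (39.08 to 54.56), 248.3 of Cox6a1 (62.23 to 78.74), 147.0 of Ndufa6 (71.63 to 93.06) and 6585.9 of mt-Co1 (1799.6 to 2570.4). All these values carry its TMM factor of 0.617, against 1.045 to 1.119 in the other 4 libraries. Without that scaling, its nuclear share of counts was 0.876%, against 0.596% to 0.659%. Its mitochondrially encoded share was 1.43%, against 0.740% to 1.14%. The part of its cell makeup and of the scaling in these values was not tested.

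Mouse 25 (VSG) accounted for 3 others. Its duodenum library held 26.34 CPM of Cox7a1, against 10.29 to 14.91 in the other VSG duodenum libraries, and 263.8 of Atp5g3, against 160.2 to 197.6. Its colon library held 36.48 CPM of Ndufa4, against 14.36 to 22.01. The last was mt-Nd2 in the sham ad libitum colon library of mouse 32, at 564.7 CPM against 428.4 to 466.6.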

How the results depend on the processing

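Colon against ileum kept its direction in every alternative run, whereas both comparisons with the duodenum depended on the library of mouse 27 and on the library index. The settings that leave that library out, use the index or work within an index were chosen after seeing the data, and except where a construction is named the cause was not tested. Counts below are nuclear or mitochondrial members past the threshold and medians are log2 fold changes.

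For ileum against duodenum (7 nuclear calls), limma voom gave 12, the replicate block 15, also with nuclear-only scaling, and 16 without the library of mouse 27. The index covariate gave 16, or 0 without that library, and within D501, with or without that library, 0. The nuclear median was -0.45 with the index covariate. The single mitochondrial call became 0 with no filter, a stricter filter, voom, only the libraries compared, the library of mouse 27 left out, and each replicate block, 6 with the index covariate (0 without that library) and 3 within D501. The median log2 fold change of the mitochondrially encoded genes, ileum against duodenum, was -0.81 with the index covariate, -0.90 within D501 and -0.61 within D501 without that library. The last value rested on sham ad libitum libraries alone.

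For colon against duodenum (30 nuclear calls) the count was 50 without the library of mouse 27, 47 with the replicate block as well, 7 with the index covariate and 3 with that covariate and without that library, where mitochondrial calls were 0. Medians with the index covariate were -0.17 (nuclear) and -0.69 (mitochondrial). For colon against ileum (30 nuclear calls) the replicate block without that library gave 48. The 3 mitochondrial calls became 5 with voom, without that library and with the block and nuclear-only scaling, 6 with the block without that library, and 1 within D503, which holds 12 libraries.

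Reversed values were those of Cox7a2l (0.068) in ileum against duodenum within D501 without the library of mouse 27, Ndufaf2 (-0.14) there with the index covariate, and Cox6a1 (-0.12), Ndufa13 (-0.081), mt-Co1 (-0.12) and mt-Nd6 (-0.045) in colon against duodenum with that covariate.

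Leaving out 1 mouse at a time gave 4 to 12 nuclear calls for ileum against duodenum (12 without mouse 27, 4 without mouse 13, 19 or 32), 26 to 43 for colon against duodenum and 19 to 35 for colon against ileum (19 without mouse 32). Mitochondrial calls were 0 to 1, 2 to 3 and 2 to 4. Nuclear medians ran from -0.13 to 0.02, 0.12 to 0.25 and 0.18 to 0.26, and mitochondrial ones from -0.25 to -0.07, 0.05 to 0.23 and 0.24 to 0.35.

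The replicate block, which pairs regions by mouse, otherwise changed counts by under 1.5 times, with 37 nuclear calls for colon against duodenum and 41 for colon against ileum. Surgery comparisons and their interaction with region gave 0 member calls in every setting run. Of single genes named, 927 values stayed on their side of the threshold, 150 lost their call and 6 turned. Duodenum and index are largely confounded, and ileum and colon are partly confounded with the index. Strand use and reads with several matches limit the genes named for them.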
